A study of Rattus norvegicus with 9 samples.

Results

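The response of cultured heart muscle cells to the growth factor IGF1 after 48 hours is described here across all genes measured. The comparison was chosen by treatment label and uses 6 of the 9 samples of the series, the 3 given 10 nM IGF1 and the 3 given vehicle. All were neonatal rat ventricular myocytes (NRVMs), that is primary heart muscle cells of newborn rat ventricles, and their total RNA was sequenced. The other 3 samples, given 50 µM phenylephrine, an alpha-adrenergic agonist that also drives hypertrophic growth, entered the estimate of the spread and are set beside some results. The labels name no strain, sex, medium or vehicle, nor whether replicates were cultured apart. The p-values therefore set the difference between groups against only the spread of these samples within groups. That spread may be technical.

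IGF1 binds the receptor tyrosine kinase IGF1R, which through the IRS adaptor proteins activates PI3K and the kinase AKT. AKT raises protein synthesis through mTOR complex 1 and keeps the FoxO transcription factors out of the nucleus, which lowers the genes that FoxO factors drive, among them atrophy ubiquitin ligases and brakes on the cell cycle. In heart muscle the pathway is known for postnatal and exercise-induced growth, and newborn cardiomyocytes still keep a limited capacity to divide.

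IGF1 replicate 1 stood apart from the other two IGF1 samples, so fold changes and counts of members are also given without it. Where a gene is followed by 2 values in parentheses, they are its log2 fold change with all samples and then without IGF1 replicate 1. Between it and IGF1 replicates 2 and 3, 252 and 209 genes differed over 1.5-fold, where the remaining pairs within a group differed in 2 to 29 genes. Total counts were 31274396 to 48505265 per sample, and a level of 1 CPM (counts scaled to library size and composition) rested on 29.1 to 51.6 reads. Markers that define cardiomyocytes were abundant in every sample, with 8 markers summing to 22549 to 24329 CPM in the vehicle samples, 43509 CPM in IGF1 replicate 1 and 30061 and 31067 CPM in IGF1 replicates 2 and 3. The sum of 9 endothelial markers was 79.2 to 86.9 CPM with vehicle and 35.8 to 42.0 CPM with IGF1. Kdr, taken up below, made up much of the vehicle sum. That of 10 fibroblast markers was 5087 to 6080 and 5966 to 6888 CPM, and that of 8 macrophage markers 72.4 to 83.9 and 66.3 to 72.9 CPM. In such bulk samples fewer cells of a type and less RNA per cell cannot be told apart. Reads can be shared by Acta1 with Actc1, by Myh6 with Myh7 and by Scd1 with Scd2, near-identical pairs whose values are uncertain. The CPM values are not divided by gene length and are compared only within a gene.

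Against vehicle, 2935 of 11873 genes tested were higher (24.7%) and 2781 lower (23.4%) with IGF1 at an adjusted p under 0.05 in edgeR's quasi-likelihood F test. Without IGF1 replicate 1, 3292 of 12030 were higher (27.4%) and 3194 lower (26.6%). Counts of list members against vehicle given below are to be read beside these shares of all genes tested. Called in both fits were 2825 higher (23.8%) and 2620 lower genes (22.1%), and calls in either direction took 48.1% of genes, or 53.9% without replicate 1. The changes were mostly small, since 272 genes (2.29%) were at least 2-fold higher and 253 (2.13%) at least 2-fold lower (291, 2.42%, and 251, 2.09%, without replicate 1). Normalised to library size alone, 2031 genes were higher and 3614 lower, and higher genes then took 36% of the calls in place of 51.3%. The genes of mitosis and cytokinesis rose as whole lists, with medians over 2-fold, and cholesterol synthesis, the TCA cycle, the respiratory chain and the proteasome rose by less. FoxO targets, ERK feedback genes, lysosomal genes and BMP targets were mostly lower. The classical markers of hypertrophy gave no stable picture, because their levels in IGF1 replicate 1 differed several-fold from those in replicates 2 and 3.

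**Figure D1:**
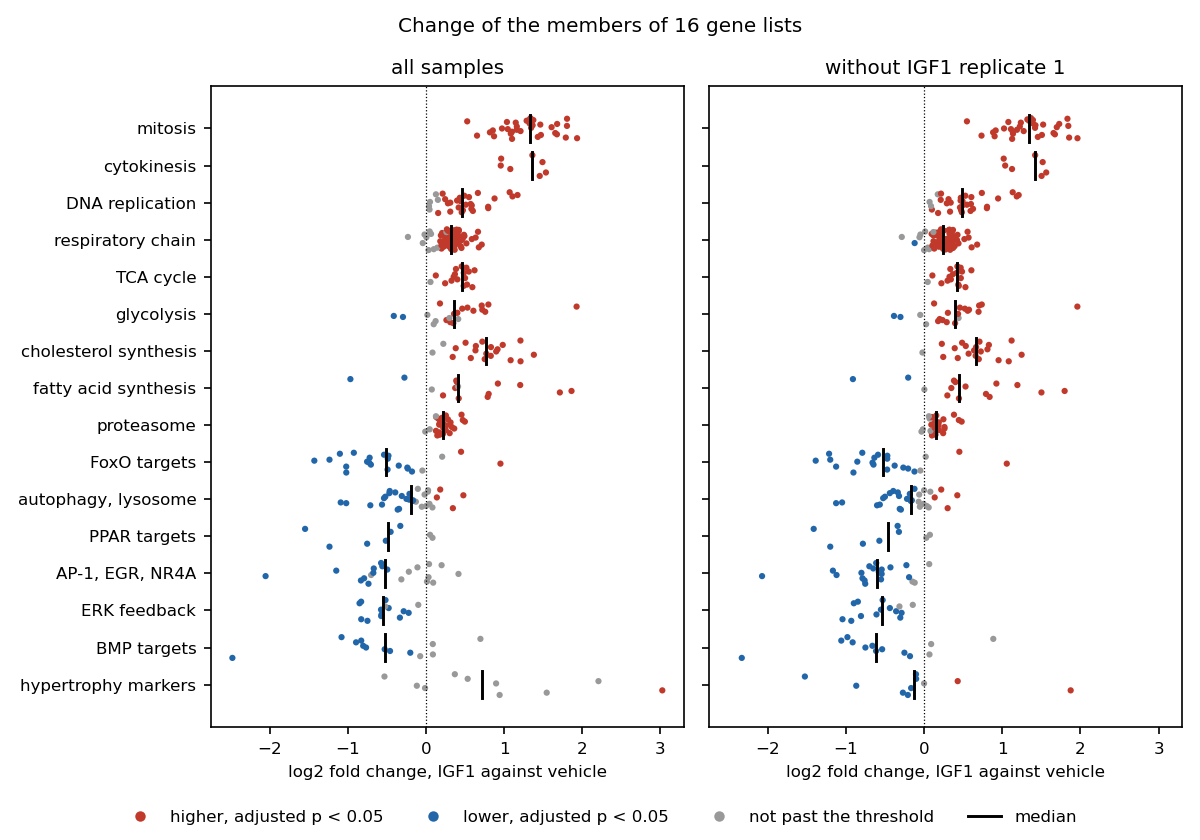
Log2 fold change of IGF1 against vehicle (horizontal axis) for every tested member of 16 gene lists (rows), with all samples on the left and without IGF1 replicate 1 on the right. Each point is a gene, coloured by its call, and the bar is the list median. The median that moves most between the panels is that of the hypertrophy markers, which goes from 0.72 to -0.13.

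Among genes at 5 CPM or more in a group that were called in both fits, with groups that did not overlap, the largest rise was that of Myo16, an unconventional myosin. Its level was 1.92, 1.20 and 1.74 CPM in vehicle replicates 1 to 3 and 11.5, 14.6 and 17.9 CPM in IGF1 replicates 1 to 3. Every IGF1 sample was above every vehicle sample, with a log2 fold change of 3.17, SE 0.22, adjusted p = 2.3e-07, and 3.31 without replicate 1. Ckmt2, the mitochondrial creatine kinase of striated muscle, was at 5.64, 5.99 and 6.36 CPM with vehicle and 47.8, 45.8 and 46.3 CPM with IGF1. Its IGF1 samples were close together and far above vehicle (2.96, SE 0.076, adjusted p = 2.2e-12, and 2.94 without replicate 1), and the phenylephrine samples, at 4.36, 4.89 and 4.14 CPM, lay below vehicle. Eno3, the muscle form of the glycolytic enzyme enolase, was at 68.4, 73.0 and 77.4 CPM with vehicle and 265, 282 and 286 CPM with IGF1. All of its IGF1 samples were above all vehicle samples (1.93, SE 0.051, adjusted p = 2.6e-12, and 1.96 without replicate 1). Crhr2, a receptor for the urocortin peptides, was at 1.64, 1.56 and 1.43 CPM with vehicle and 6.22, 6.26 and 6.27 CPM with IGF1, a low level in both groups but without overlap (2.01, SE 0.19, adjusted p = 9.1e-07, and 2.02 without replicate 1). The vesicular glutamate transporter Slc17a7 (2.5, and 2.55 without replicate 1), Lppr4 (1.92 and 1.96), the muscle protein Ky (1.89 and 2.10), the DNA helicase Pif1 (1.88 and 1.95) and Fam81a (1.80 and 1.90) rose as well. The 15 largest rises also held those of Acta1, Ccnb1, Kif20a, Pttg1 and Scd2, taken up with their groups.

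Among genes chosen by the same rule, the largest fall was that of Myom2, which encodes myomesin 2, a protein that links thick filaments at the M-band. It was at 2595, 2726 and 2742 CPM with vehicle and 436, 480.5 and 493 CPM with IGF1. Every IGF1 sample was far below every vehicle sample, with a log2 fold change of -2.52, SE 0.054, adjusted p = 3.6e-13, and -2.46 without replicate 1. Hamp, which encodes the iron-regulating peptide hepcidin, was at 7.76, 8.01 and 5.78 CPM with vehicle and 0.955, 1.22 and 1.61 CPM with IGF1. It was low in both groups and lower with IGF1 in every sample (-2.47, SE 0.19, adjusted p = 9.0e-08, and -2.33 without replicate 1). Pla2g7, the platelet-activating factor acetylhydrolase, was at 136, 129.6 and 128 CPM with vehicle and 27.2, 31.7 and 32.1 CPM with IGF1, again with no overlap (-2.11, SE 0.064, adjusted p = 1.0e-11, and -2.04 without replicate 1). Gnb3, a G protein beta subunit, was at 20.8, 23.0 and 24.1 CPM with vehicle and 6.09, 4.81 and 4.40 CPM with IGF1, and its IGF1 samples were all below vehicle (-2.16, SE 0.11, adjusted p = 1.7e-09, and -2.30 without replicate 1). Cbx7, a Polycomb chromatin protein, was at 10.2, 9.68 and 8.80 CPM and then 2.34, 2.46 and 2.54 CPM, with the IGF1 samples lower (-1.96, SE 0.12, adjusted p = 8.5e-09, and -1.93 without replicate 1). The remaining members of the 15 largest falls were Pbld1, Lrtm2, the small Maf factor Maff, Dpysl5, the pyrimidine-degrading enzyme Dpyd, the chemokine Cxcl10, Lrrc2, Lingo4, Rasd2 and Tmem140. Their log2 fold changes ran from -2.19 for Lrtm2 to -1.74 for Tmem140, and from -2.25 for Pbld1 to -1.69 for Tmem140 without replicate 1.

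Cell division genes made the clearest group. Of 33 tested genes of mitosis, 33 rose with IGF1, with a median log2 fold change of 1.33 against -0.0018 over all genes tested. Without IGF1 replicate 1 all 33 rose, with a median of 1.34. All 7 tested cytokinesis genes rose in both fits (medians 1.36 and 1.42). Of 31 DNA replication genes, 26 rose and none fell (median 0.46), and 28 rose without replicate 1 (median 0.48). Over all genes tested, 24.7% were called higher.

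Many genes of the late cell cycle share a promoter arrangement, a CHR element (letters TTTGAA) with CCAAT boxes upstream of it, through which the MuvB complex and NF-Y act in G2 and mitosis. The sequences of 5 genes are shown. Ccnb1, Cdk1, Cdc20 and Pttg1 are the mitotic kinase subunits and the regulators of anaphase whose values follow. Ccnb2 is a member of the mitosis list whose own values are not given. Each is the 180 bases before the annotated start of transcription, 5′ to 3′ on the gene's strand, from RefSeq (build GRCr8, which is not the rn5 build of the counts). CHR letters and CCAAT letters, on either strand, are in capitals.
Ccnb1 (GRCr8 chr2:33655226-33655405, minus strand): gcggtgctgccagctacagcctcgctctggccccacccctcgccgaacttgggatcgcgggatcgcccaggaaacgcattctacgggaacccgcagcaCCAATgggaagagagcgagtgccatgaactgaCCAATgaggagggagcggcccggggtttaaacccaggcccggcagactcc
Ccnb2 (GRCr8 chr8:79981659-79981838, minus strand): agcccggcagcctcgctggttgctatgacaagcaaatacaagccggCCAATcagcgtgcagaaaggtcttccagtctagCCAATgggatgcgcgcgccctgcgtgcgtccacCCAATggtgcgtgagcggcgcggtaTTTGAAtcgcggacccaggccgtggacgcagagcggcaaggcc
Cdc20 (GRCr8 chr5:137255800-137255979, minus strand): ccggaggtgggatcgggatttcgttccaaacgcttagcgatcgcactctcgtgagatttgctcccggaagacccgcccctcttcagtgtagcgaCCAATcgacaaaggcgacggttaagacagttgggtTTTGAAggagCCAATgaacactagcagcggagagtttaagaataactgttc
Cdk1 (GRCr8 chr20:19265113-19265292, plus strand): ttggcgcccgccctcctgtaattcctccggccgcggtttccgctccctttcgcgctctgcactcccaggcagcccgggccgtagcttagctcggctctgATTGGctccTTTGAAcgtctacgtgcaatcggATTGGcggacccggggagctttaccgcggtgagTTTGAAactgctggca
Pttg1 (GRCr8 chr10:28406327-28406506, minus strand): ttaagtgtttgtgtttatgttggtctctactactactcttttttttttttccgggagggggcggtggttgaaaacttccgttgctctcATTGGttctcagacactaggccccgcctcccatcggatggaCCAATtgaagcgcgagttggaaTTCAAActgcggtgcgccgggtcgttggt
Within 250 bases before to 50 after the start, 28 of the 33 mitosis genes had a sequence. The CHR letters were found in 20 of these (71.4%, against 18.1% of 27457 rat promoters of the same length), CCAAT in 20 (71.4% against 37.7%) and both in 16 (57.1% against 7.25%). Matches on both strands were counted, also where they overlapped, in any order and at any spacing. The count of promoters with both is therefore not a count of the arrangement described above. In Ccnb2, Ccnf, Cdc20, Cdk1 and Mki67, a CCAAT match also lay downstream of a CHR match. Of 25 replication genes with a sequence, 2 held CHR (8%), and 4 held the E2F letters TTTCCCGC (16%, against 1.03% of all promoters), which no mitosis promoter held. All 6 cytokinesis genes with a sequence held CHR. Ccnb1 held 2 CCAAT boxes and no CHR letters in this window. A match of letters is a description and not a measured binding site.

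**Figure D2:**
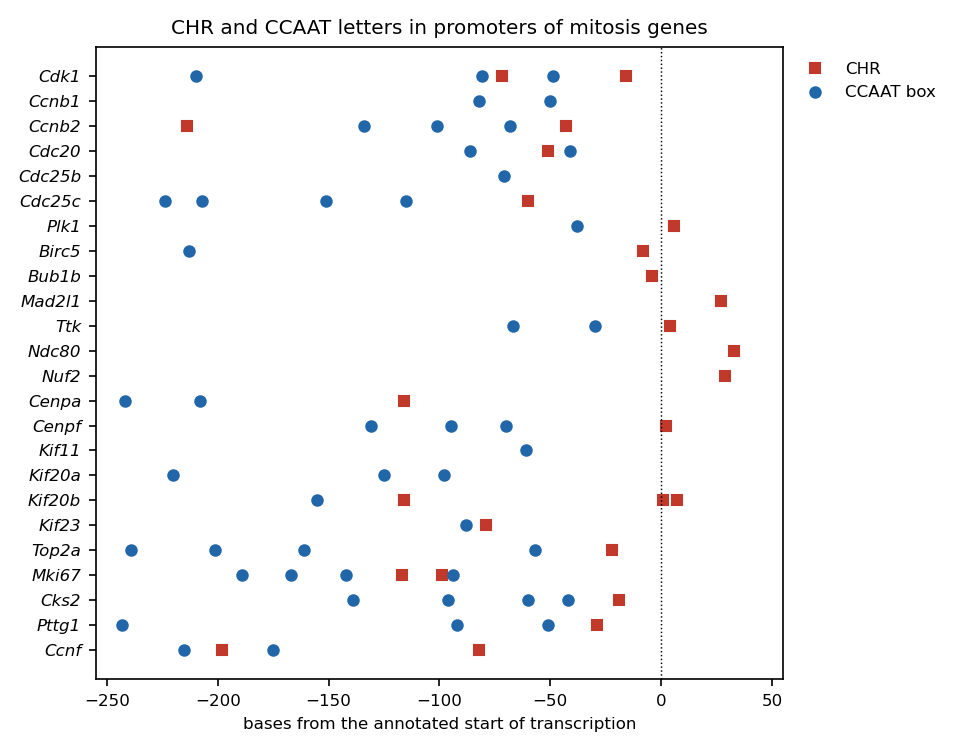
Position of CHR letters (TTTGAA, red squares) and CCAAT letters (blue circles), on either strand, in bases from the annotated start (horizontal axis) for the 24 mitosis genes with at least 1 match (rows). CHR matches gather near the start, with a median position of -25.5, and CCAAT matches lie farther upstream, with a median of -101.

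Ccnb1, which encodes cyclin B1, the partner of CDK1 at entry into mitosis, was at 26.9, 32.0 and 34.0 CPM in the vehicle samples and 114, 123 and 118 CPM in the IGF1 samples. Its level lay far above vehicle in each IGF1 sample, with a log2 fold change of 1.93, SE 0.086, adjusted p = 6.5e-09, and 1.96 without replicate 1. Cdk1 itself was at 39.3, 43.7 and 44.0 CPM with vehicle and 87.7, 93.6 and 91.0 CPM with IGF1, without overlap (1.10, SE 0.058, adjusted p = 1.6e-09, and 1.13 without replicate 1). Pttg1, which encodes securin, the inhibitor of sister chromatid separation, was at 9.34, 10.6 and 9.40 CPM and 32.8, 35.5 and 34.1 CPM. Its IGF1 samples were all higher (1.81, SE 0.083, adjusted p = 5.3e-10, and 1.83 without replicate 1). Cdc20, which activates the anaphase-promoting complex, was at 32.7, 39.4 and 36.9 CPM with vehicle and 94.8, 99.9 and 98.8 CPM with IGF1, so the groups stood well apart (1.43, SE 0.069, adjusted p = 9.2e-10, and 1.45 without replicate 1). The kinesin Kif20a (1.80 and 1.84 without replicate 1), the Aurora kinases Aurka (1.68 and 1.67) and Aurkb (1.09 and 1.14), the proliferation marker Mki67 (1.15 and 1.24) and topoisomerase Top2a (1.33 and 1.39) were among the others. The transcription factors Foxm1 (1.04 and 1.08) and Mybl2 (0.53 and 0.55), which act on late cell cycle genes, rose too, Mybl2 by the least in the mitosis list.

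Cytokinesis, the step that many cardiomyocytes skip when they become binucleate, was covered by 7 tested genes. Prc1, which bundles the microtubules of the central spindle, was at 66.5, 75 and 82.5 CPM with vehicle and 208, 224 and 217 CPM with IGF1. All IGF1 samples were higher (1.54, SE 0.064, adjusted p = 3.9e-10, and 1.56 without replicate 1). Ect2, the exchange factor that activates RhoA at the cleavage furrow, was at 32.6, 35.0 and 37.4 CPM and 89.4, 102 and 96.7 CPM, also without overlap (1.46, SE 0.068, adjusted p = 7.3e-10, and 1.5 without replicate 1). The smallest rises of the list were those of the citron kinase Cit (0.96 and 1.04 without replicate 1) and the centriole kinase Plk4 (0.96 and 1.02).

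Of the replication genes, thymidine kinase Tk1 was at 36.3, 39.8 and 42.2 CPM with vehicle and 84.0, 92.0 and 90.4 CPM with IGF1, and the ribonucleotide reductase subunit Rrm2 at 55.2, 59.1 and 67.9 CPM and 116, 144 and 132 CPM. Both were higher in every IGF1 sample, with log2 fold changes of 1.17, SE 0.057, adjusted p = 7.5e-10, and 1.21 without replicate 1 for Tk1 and 1.11, SE 0.085, adjusted p = 1.0e-06, and 1.19 without replicate 1 for Rrm2. The helicase subunits Mcm3 (0.46 and 0.48), Mcm4 (0.31 and 0.33), Mcm5 (0.60 and 0.59) and Mcm6 (0.47 and 0.47) rose. Mcm7 did not pass the threshold with all samples (0.046, adjusted p = 0.49). Without replicate 1 Mcm7 was called higher (0.10, adjusted p = 0.045). Of the G1 genes, 5 of 14 rose and 2 fell, and 8 and 4 without replicate 1. Cyclin E1, Ccne1 (0.61 and 0.64), and E2f1 (0.66 and 0.75) were higher, the pocket proteins Rbl2 (-0.68 and -0.60) and Rb1 (-0.32 and -0.33) lower and Rbl1 (0.66 and 0.68) higher. D-type cyclins moved little, with log2 fold changes of -0.089 for Ccnd1, -0.11 for Ccnd2 and 0.013 for Ccnd3, none past the threshold, and without replicate 1 Ccnd1 (now -0.22) and Ccnd2 (now -0.13) were called lower and Ccnd3 (now -0.023) was not called. Of 6 inhibitors of cyclin-dependent kinases 3 were higher and 1 lower, in both fits. Cdkn1b (p27), a FoxO target, was at 121, 122 and 123 CPM with vehicle and 85.1, 87.2 and 88.9 CPM with IGF1, lower in every IGF1 sample (-0.49, SE 0.043, adjusted p = 3.6e-07, and -0.47 without replicate 1), while Cdkn1a (p21) was at 263, 243 and 232 CPM and 403, 346 and 353 CPM, higher in every one (0.58, SE 0.059, adjusted p = 1.8e-06, and 0.51 without replicate 1). The genes of p18, Cdkn2c (1.17 and 1.22), and p57, Cdkn1c (0.62 and 0.68), rose. Which cells of the cultures carried the cell cycle transcripts was not measured. Of 10 fibroblast markers, 4 were higher and 1 lower in both fits.

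The receptors that IGF1 can bind were lower after exposure to it. Igf1r was at 66.3, 75.4 and 66.9 CPM with vehicle and 57.0, 40.8 and 39.9 CPM with IGF1. Each IGF1 sample was below each vehicle sample, replicate 1 least so (-0.61, SE 0.14, adjusted p = 0.0074, and -0.78 without replicate 1). Insr, the insulin receptor, was at 143, 159 and 149.8 CPM and 112, 103 and 96.9 CPM, with the same order of groups (-0.54, SE 0.054, adjusted p = 1.5e-06, and -0.59 without replicate 1). Igf2r, which clears IGF2 from the cell surface, fell by less (-0.24 and -0.23 without replicate 1). The ligands Igf1 and Igf2 did not pass the threshold in either fit. Of 10 binding proteins and their proteases 3 were higher and 3 lower (3 and 4 without replicate 1), near the 24.7% and 23.4% of all genes tested. Igfbp5 was at 9.04, 9.33 and 8.35 CPM with vehicle and 15.1, 19.9 and 18.9 CPM with IGF1, higher in every IGF1 sample (1.02, SE 0.10, adjusted p = 1.1e-06, and 1.13 without replicate 1), with Igfbp3 (0.67 and 0.84) and Igfbp4 (0.74 and 0.78) also higher. Igfbp2 (-1.16 and -1.01) and Stc1 (-0.35 and -0.32), an inhibitor of the proteases that cut binding proteins, were lower.

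Downstream, the adaptor Irs2 was at 177, 184 and 172 CPM with vehicle and 96.2, 75.1 and 78.0 CPM with IGF1. The IGF1 samples were all lower (-1.10, SE 0.079, adjusted p = 5.1e-07, and -1.22 without replicate 1), as they were for Irs1 (-0.75 and -0.66 without replicate 1). The adaptors that dampen or branch the signal, Grb10 (0.58 and 0.56), Grb14 (0.35 and 0.35) and Grb2 (0.45 and 0.47), were higher. PI3K subunits split, with the regulatory subunits Pik3r3 (1.24 and 1.22) and Pik3r1 (0.44 and 0.50) higher, and the catalytic Pik3cd (-1.10 and -1.20) and Pik3ca (-0.19 and -0.23) and the inhibitor Pik3ip1 (-0.92 and -0.79) lower. Among kinases Rps6kb1 (S6 kinase) was higher (0.42 and 0.40), while Akt1 (0.024, adjusted p = 0.65; 0.0032 and 0.94 without replicate 1) and Akt2 (-0.043, 0.43; -0.036 and 0.45) did not pass the threshold. Of the pathway's brakes, Ddit4 (0.68 and 0.68) was higher and Trib3 (-0.63 and -0.60) and Tsc1 (-0.37 and -0.34) lower. Over the 41 tested members of the pathway 12 were higher and 13 lower, where 24.7% and 23.4% of all genes tested were. Without replicate 1 these counts were 14 and 17, beside 27.4% and 26.6%.

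All 3 tested FoxO genes were lower, Foxo4 (-0.80 and -0.75), Foxo1 (-0.78 and -0.67) and Foxo3 (-0.25 and -0.19), the last not past the threshold without IGF1 replicate 1 (-0.19, adjusted p = 0.10) or 3 (0.062), vehicle replicate 1 (0.063) or 2 (0.14) or phenylephrine replicate 3 (0.054). Of 22 targets of FoxO factors, 18 were lower and 2 higher, with a median of -0.51, and the same counts and a median of -0.53 were found without replicate 1. Txnip, which restrains glucose uptake and thioredoxin, was at 1461, 1512 and 1562 CPM with vehicle and 530.4, 569.6 and 587 CPM with IGF1. The IGF1 samples were far below vehicle (-1.43, SE 0.049, adjusted p = 3.1e-11, and -1.39 without replicate 1). Pdk4, the kinase that shuts off pyruvate dehydrogenase, was at 85.9, 90.5 and 99.3 CPM and 37.2, 41.3 and 38.7 CPM, with no overlap (-1.23, SE 0.059, adjusted p = 6.7e-10, and -1.20 without replicate 1). The ubiquitin ligase Fbxo32 (atrogin-1) was at 73.9, 82.9 and 71.9 CPM with vehicle and 30.9, 41.3 and 40.0 CPM with IGF1, lower in every IGF1 sample (-1.02, SE 0.10, adjusted p = 7.4e-06, and -0.90 without replicate 1). Its companion in muscle atrophy, Trim63 (MuRF1), was at 194, 209 and 212 CPM and 167, 188 and 188 CPM, so its fall was small (-0.18, SE 0.055, adjusted p = 0.015, and -0.12 without replicate 1), and it missed the threshold without vehicle replicate 2 (adjusted p = 0.051) or 3 (0.059). Against the direction of the list, Sesn3 was at 22.0, 23.9 and 22.2 CPM with vehicle and 37.1, 47.4 and 46.9 CPM with IGF1, higher in every IGF1 sample (0.95, SE 0.091, adjusted p = 1.4e-06, and 1.06 without replicate 1). The letters GTAAACA, part of the site that FoxO factors recognise, stood in 3 of the 18 target promoters with a sequence (16.7%, against 3.76% of all), those of Insr, Pik3ip1 and Trim63.

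**Figure D3:**
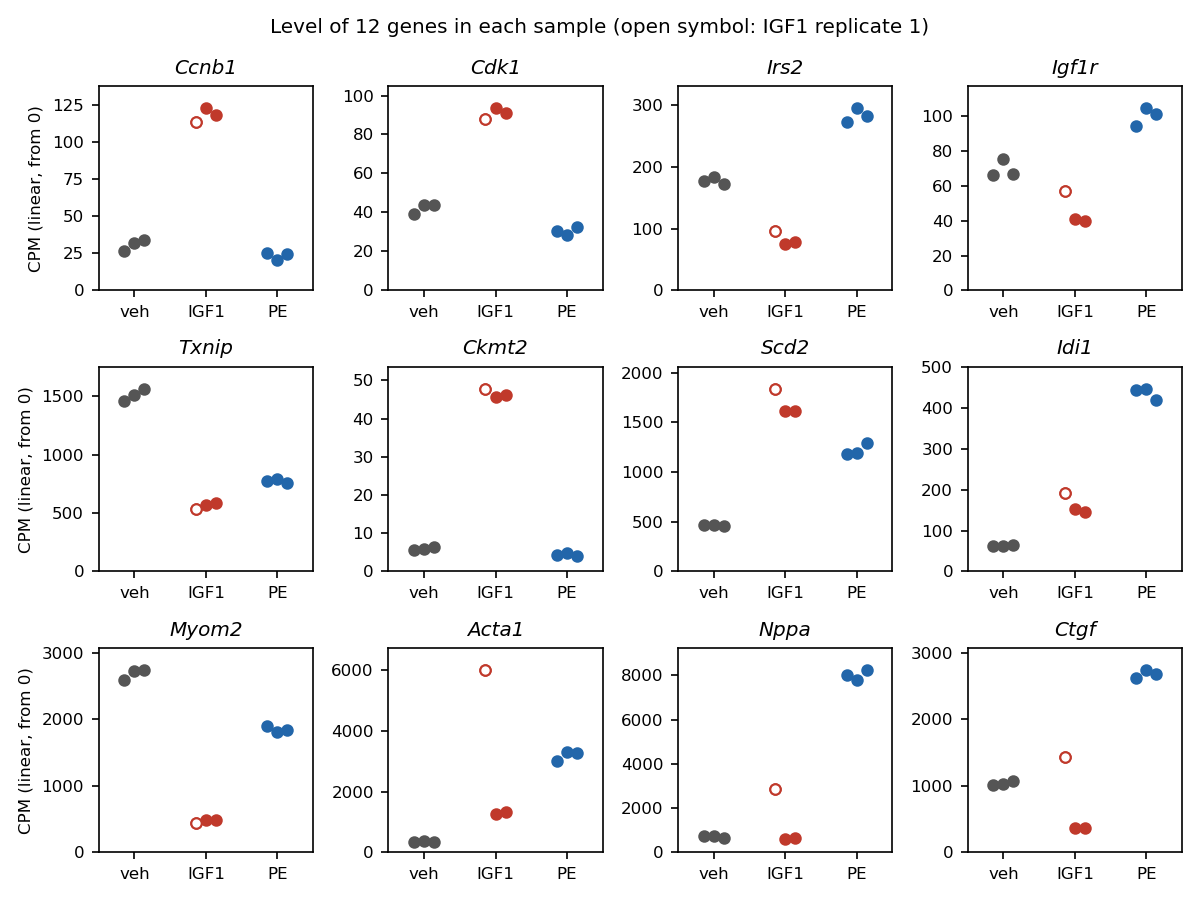
Level of 12 genes in CPM (vertical axes, linear and from 0) in each vehicle (veh), IGF1 and phenylephrine (PE) sample, replicates 1 to 3 from left to right. The open symbol is IGF1 replicate 1, which lies near the other IGF1 samples for Ccnb1, Cdk1, Txnip, Ckmt2 and Myom2 and far above them for Acta1, Nppa and Ctgf.

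Genes of mitochondrial energy metabolism rose together by small amounts. Of 69 tested nuclear genes of the respiratory chain and ATP synthase, 59 were higher and none lower, with a median log2 fold change of 0.32. Without replicate 1, 60 were higher and 1 lower, with a median of 0.24. With library-size scaling 56 were higher and 2 lower. In complex I, Ndufs1, a subunit of its electron input module, was at 490.3, 525 and 534 CPM with vehicle and 889, 819 and 834 CPM with IGF1. All IGF1 samples were higher (0.71, SE 0.047, adjusted p = 1.7e-08, and 0.68 without replicate 1). Cycs, which encodes the electron carrier cytochrome c, was at 278, 286 and 303 CPM and 491, 429.7 and 429 CPM, again without overlap (0.64, SE 0.053, adjusted p = 2.1e-07, and 0.57 without replicate 1). In complex IV the largest rises were those of Cox6a1 (0.49 and 0.37) and Cox7b (0.49 and 0.43), and in ATP synthase that of the c subunit gene Atp5g1 (0.67 and 0.56). All 4 complex II genes rose in both fits, among them Sdha (0.27 and 0.25). The exception in the other direction without replicate 1 was Ndufs7 (-0.12).

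Of 17 TCA cycle genes, 16 rose in both fits, with medians of 0.46 and 0.42. Pdha1, a subunit of the pyruvate dehydrogenase that feeds the cycle, was at 536, 571 and 583 CPM with vehicle and 888, 863 and 849.9 CPM with IGF1. Citrate synthase Cs was at 459, 489 and 479 CPM and 782, 682 and 689 CPM. Both genes were higher in every IGF1 sample, with log2 fold changes of 0.62, SE 0.044, adjusted p = 3.8e-08, and 0.60 without replicate 1 for Pdha1 and 0.59, SE 0.052, adjusted p = 3.3e-07, and 0.53 without replicate 1 for Cs. Mitochondrial import and chaperone genes (11 of 13 higher, 10 without replicate 1, none lower) and mitochondrial ribosome genes (17 of 26 higher, 18 without replicate 1, none lower) followed, among them Tomm40 (0.44 and 0.33) and Mrps22 (0.59 and 0.51). The pyruvate carriers Mpc2 (0.63 and 0.59) and Mpc1 (0.39 and 0.26) and the adenine nucleotide carrier Slc25a4 (0.35 and 0.30) rose. The regulators of mitochondrial biogenesis did not move as a list, with 3 of 13 higher and 3 lower (4 and 3 without IGF1 replicate 1, and 1 lower without vehicle replicate 1 or 3). Ppargc1a (PGC-1 alpha) was at 80.3, 89.7 and 82.0 CPM with vehicle and 70.9, 85.6 and 82.9 CPM with IGF1, so the groups overlapped (-0.071, SE 0.065, adjusted p = 0.39, and 0.0066 without replicate 1). Perm1, a muscle regulator of the same programme, was higher (0.53 and 0.53).

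Genes that use and buffer high-energy phosphate rose with them. Ckb, the brain-type creatine kinase, was at 106, 103 and 101 CPM with vehicle and 239, 190.2 and 199 CPM with IGF1, higher in every IGF1 sample (1.02, SE 0.070, adjusted p = 1.2e-07, and 0.92 without replicate 1). Gatm, which makes the creatine precursor, was at 24.2, 22.2 and 25 CPM and 73.5, 38.7 and 40.0 CPM. It was highest in replicate 1 and above vehicle in all (1.08, SE 0.26, adjusted p = 0.013, and 0.72 without replicate 1). The creatine transporter Slc6a8 was slightly lower (-0.17 and -0.16), and adenylate kinase Ak1 higher (0.55 and 0.58).

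Glucose metabolism genes were mostly higher. Of 21 glycolysis genes 14 rose and 2 fell (16 and 2 without replicate 1), with medians of 0.36 and, without replicate 1, 0.40. Slc16a3, the lactate exporter MCT4, was at 28.6, 34.3 and 32.7 CPM with vehicle and 98.3, 68.8 and 74.2 CPM with IGF1. All IGF1 samples were above vehicle (1.33, SE 0.14, adjusted p = 1.4e-04, and 1.17 without replicate 1). Gapdh (0.76 and 0.70 without replicate 1), often used as a reference gene, and Ldha (0.80 and 0.74) rose, while Pfkfb3 (-0.41 and -0.39) and Pfkfb2 (-0.29 and -0.30), which make the activator of phosphofructokinase, fell. The insulin-responsive glucose transporter Slc2a4 (GLUT4) was at 75.7, 75.1 and 76.8 CPM and 85.1, 101 and 95.1 CPM, a small rise (0.30, SE 0.060, adjusted p = 7.4e-04, and 0.37 without replicate 1). Of 12 glycogen genes 9 were higher and 2 lower in both fits. Glycogenin Gyg1 was at 629, 641 and 662 CPM with vehicle and 1308, 1027 and 1022 CPM with IGF1, higher in every IGF1 sample (0.80, SE 0.079, adjusted p = 4.4e-06, and 0.67 without replicate 1), and the synthase Gys1 (0.52 and 0.48) and branching enzyme Gbe1 (0.54 and 0.39) rose too. In the pentose phosphate and hexosamine list 3 of 14 were higher and 2 lower (4 and 3 without replicate 1). With all samples 21.4% were higher and 14.3% lower, beside 24.7% and 23.4% of all genes tested.

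Fatty acid genes split by role. Uptake and activation genes were lower in 5 of 9 and higher in 3, in both fits. The fatty acid transporter Slc27a1 was at 128, 129.6 and 132 CPM with vehicle and 54.7, 63.2 and 62.3 CPM with IGF1. Every IGF1 sample was lower (-1.11, SE 0.051, adjusted p = 5.3e-10, and -1.05 without replicate 1). The carnitine transferases Cpt1a (-0.61 and -0.52) and Cpt1b (-0.28 and -0.33), which admit fatty acids to mitochondria, were lower, and the acyl-CoA synthetase Acsl1 was higher (0.70 and 0.73). Beta-oxidation enzymes went the other way, with 9 of 14 higher and 1 lower (10 and 2 without replicate 1), though by little, Acads most (0.51 and 0.48). Of 8 targets of PPAR factors none was higher and 6 were lower in both fits, among them Angptl4 (-0.75 and -0.78), an inhibitor of lipoprotein lipase. Ppara itself had a log2 fold change of 0.087 (adjusted p = 0.45; 0.18 and 0.027 without replicate 1).

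Cholesterol and fatty acid synthesis genes were mostly higher. In cholesterol synthesis, 18 of 20 tested members were higher and 0 lower, with a median of 0.76. Leaving out replicate 1 gave 19 higher (median 0.66). Idi1, which isomerises isopentenyl diphosphate, was at 61.3, 62.9 and 63.9 CPM with vehicle and 193, 153 and 145 CPM with IGF1. Replicate 1 was the highest and all IGF1 samples were above vehicle (1.38, SE 0.091, adjusted p = 8.6e-07, and 1.25 without replicate 1). Of 14 genes of lipid uptake and SREBP control 6 were higher and 5 lower in both fits. Genes of the SREBP factors that drive sterol and fatty acid synthesis, Srebf1 (0.94 and 0.92 without replicate 1) and Srebf2 (0.58 and 0.55), rose. The liver X receptor genes Nr1h3 (-0.50 and -0.54) and Nr1h2 (-0.41 and -0.42) fell. The letters TCACNCCAC of the SREBP site (N any base) stood in 0 of 15 cholesterol synthesis promoters with a sequence, against 1.13% of all.

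Of 15 fatty acid synthesis genes 11 rose and 2 fell (12 and 2 without replicate 1). The desaturase Scd2 was at 471, 464 and 456 CPM with vehicle and 1835, 1611 and 1611 CPM with IGF1, far apart in every sample (1.86, SE 0.057, adjusted p = 1.0e-11, and 1.80 without replicate 1). Its neighbour in function, Scd1, was at 18.0, 17.7 and 19.6 CPM and 78.0, 52.2 and 52.5 CPM, also higher in every IGF1 sample (1.71, SE 0.16, adjusted p = 9.7e-05, and 1.5 without replicate 1). The desaturases of polyunsaturated fatty acids, Fads1 (1.21 and 1.19) and Fads2 (0.92 and 0.92), the synthase Fasn (0.80 and 0.79) and the carboxylase Acaca (0.79 and 0.84) rose. Gpam, which starts the synthesis of triglycerides, fell, from 173, 189 and 178 CPM to 84.8, 94.4 and 96.7 CPM, in every IGF1 sample (-0.97, SE 0.052, adjusted p = 2.2e-09, and -0.91 without replicate 1).

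Sarcomere genes were mostly higher, 20 of 37 up and 4 down, and 21 and 8 without replicate 1. With all samples 54.1% were up and 10.8% down, beside 24.7% and 23.4% of all genes tested. Of the thin filament, the troponin T gene Tnnt2 was at 7119, 7674 and 8059 CPM with vehicle and 11945, 10281 and 10746 CPM with IGF1. Each IGF1 sample was higher (0.53, SE 0.061, adjusted p = 5.1e-06, and 0.47 without replicate 1). Cardiac actin Actc1 was at 5873, 6199.6 and 5995 CPM and 18326, 8292 and 8631 CPM, highest in replicate 1 (0.96, SE 0.31, adjusted p = 0.043, and 0.49 without replicate 1). Its call was lost without any single vehicle or phenylephrine sample (adjusted p = 0.068 to 0.12). The myosin heavy chains differed. Myh6, the fast adult-type form of the rodent ventricle, was at 1285, 1389 and 1304 CPM with vehicle and 2081, 2091 and 2086 CPM with IGF1, higher in every IGF1 sample (0.65, SE 0.044, adjusted p = 1.9e-08, and 0.66 without replicate 1). Myh7, the slow form, was at 20714, 22779.6 and 21529.6 CPM and 25893, 19199.7 and 19434 CPM. Only replicate 1 lay above vehicle, and the log2 fold change was -0.011 (adjusted p = 0.94) with all samples and -0.17 (adjusted p = 1.4e-04) without replicate 1. Light chains rose, Myl4, the atrial and fetal form, by 1.45 (0.97 without replicate 1), Myl3 by 0.94 (0.74) and Myl2 by 0.98 (0.62), the last not past the threshold without vehicle replicate 1 (adjusted p = 0.074) or 2 (0.059). Apart from Myom2, the falls were those of the myosin light chain kinase Mylk3 (-0.71 and -0.67) and of the ubiquitin ligases Trim54 (-0.65 and -0.60) and Trim63. Z-disc genes leaned on replicate 1, among them Synpo2l, a regulator of actin bundles, whose log2 fold change was 0.51 (adjusted p = 0.057) and 0.25 (5.6e-09) without it.

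Skeletal muscle and developmental isoforms were higher in 13 of 24 and lower in 1 (14 and 1 without replicate 1). Of the 8 calcium and triad genes in this list 6 were higher in both fits, and 3 with IGF1 and vehicle samples alone. Casq1, the calcium store protein of fast skeletal muscle, was at 21.5, 21.8 and 24.2 CPM with vehicle and 329, 54.2 and 55 CPM with IGF1. All IGF1 samples were above vehicle, replicate 1 far above the other two (2.68, SE 0.80, adjusted p = 0.032, and 1.28 without replicate 1). Sypl2, a triad protein, was at 2.87, 3.30 and 3.31 CPM and 52.7, 8.22 and 8.70 CPM, with the same order (2.84, SE 0.86, adjusted p = 0.035, and 1.42 without replicate 1). The calls of Casq1 and Sypl2 were lost without any single vehicle or phenylephrine sample (0.053 to 0.096 and 0.055 to 0.10), and they held without IGF1 replicate 1 (adjusted p = 5.3e-05 and 1.8e-12). Cacna1s, the skeletal calcium channel, was steadier, at 12.3, 12.6 and 13.7 CPM with vehicle and 25.9, 23.2 and 23.8 CPM with IGF1 (0.92, SE 0.10, adjusted p = 2.7e-06, and 0.87 without replicate 1). Slow skeletal troponin I, Tnni1, which neonatal heart also makes, rose by 0.36 (0.31 without replicate 1).

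The classical markers of cardiac hypertrophy depended on replicate 1. With all samples 1 of 10, Acta1, was called higher and none lower. Without replicate 1, 2 were higher (Acta1 and Xirp2) and 7 lower. Nppa, which encodes atrial natriuretic peptide, was at 724, 739 and 652 CPM with vehicle, 2848, 591 and 630.0 CPM in IGF1 replicates 1 to 3 and 8014, 7792 and 8246 CPM with phenylephrine. Replicate 1 was above every vehicle sample and the other two were below all of them. The log2 fold change was 0.94 (SE 0.63, adjusted p = 0.27) with all samples and -0.21 (adjusted p = 4.1e-04) without replicate 1. Nppb, which encodes the B-type peptide, was at 145, 154 and 135 CPM with vehicle and 1031, 119 and 121 CPM with IGF1, with the same order (1.55, adjusted p = 0.20, against -0.27 and 4.6e-07 without replicate 1). Acta1, skeletal alpha-actin, was at 334, 368 and 356 CPM with vehicle and 6019, 1268 and 1317 CPM with IGF1. All 3 IGF1 samples were above vehicle, replicate 1 far above the other two, and the fold was 8.13 with all samples and 3.67 without it (3.02, SE 0.67, adjusted p = 0.010, and 1.87 without replicate 1). Ctgf, a matrix protein induced by stretch, was at 1017, 1034 and 1066 CPM and 1439, 360.4 and 362 CPM. Replicate 1 was above vehicle and replicates 2 and 3 far below it, for -0.53 (adjusted p = 0.48) with all samples and -1.52 (adjusted p = 1.3e-32) without replicate 1. Ankrd1, a stretch-responsive protein of the Z-disc and nucleus, had the same pattern at 3630.2, 3678 and 3602 CPM with vehicle and 6085, 1973 and 2012 CPM with IGF1 (-0.12, adjusted p = 0.86, against -0.87 and 7.1e-25). Rcan1, a target of calcineurin and NFAT, was at 239.9, 255 and 262 CPM and 628, 231 and 239 CPM, with replicate 1 alone raised (0.53, adjusted p = 0.32, against -0.10 and 0.0099).

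**Figure D4:**
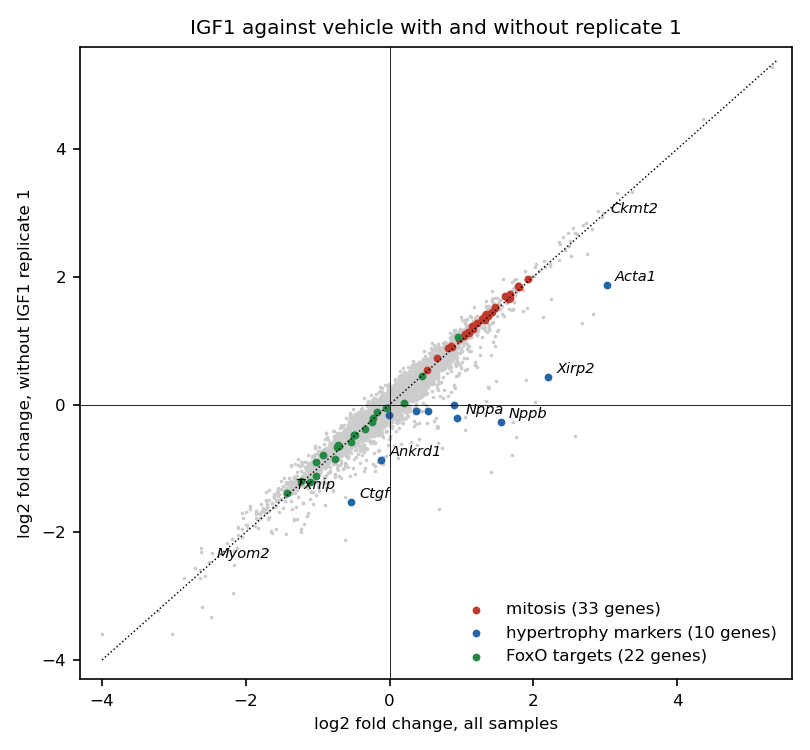
Log2 fold change of IGF1 against vehicle with all samples (horizontal axis) and without IGF1 replicate 1 (vertical axis) for the genes tested (grey), with 3 lists coloured. Mitosis genes and FoxO targets lie on the dotted line of equal values, and the hypertrophy markers lie below it, Nppb at 1.55 and -0.27.

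Of 35 calcium handling and excitation genes 13 were higher (37.1%) and 8 lower (22.9%), beside 24.7% and 23.4% of all genes tested. Without replicate 1, 17 were higher and 8 lower, beside 27.4% and 26.6%. The inhibitor of the calcium pump, Pln (phospholamban), was at 3787, 3813 and 3891 CPM with vehicle and 2909, 3195 and 3280.3 CPM with IGF1, lower in every IGF1 sample (-0.29, SE 0.051, adjusted p = 2.4e-04, and -0.24 without replicate 1). The calcium store protein Casq2 rose by 0.60 (0.42) and its partner Hrc by 0.61 (0.68). Hcn4, the pacemaker channel, was at 25.3, 25.4 and 23.5 CPM with vehicle and 51.5, 61.4 and 58.0 CPM with IGF1. Every IGF1 sample was higher (1.21, SE 0.070, adjusted p = 4.4e-09, and 1.27 without replicate 1). The T-type calcium channels Cacna1g (0.62 and 0.57) and Cacna1h (0.47 and 0.52) rose, and the potassium channel Kcnd3, of the transient outward current, fell (-0.83 and -0.73). Connexin 43, Gja1, the gap junction protein of working myocardium, was lower (-0.36 and -0.29), and connexin 40, Gja5, higher (0.65 and 0.73).

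Protein synthesis genes did not move as one list. Ribosome biogenesis genes were higher in 8 of 25 and lower in 7, in 6 and 10 without IGF1 replicate 1, in 4 and 4 without vehicle replicate 2, and in 2 and 9 with library-size scaling. Leaving out vehicle replicate 1 or 3 gave 5 and 4 higher. With all samples 32% were higher and 28% lower, beside 24.7% and 23.4% of all genes tested. Myc, which drives many of them, was at 22.1, 21.9 and 19.7 CPM with vehicle and 12.2, 7.75 and 9.28 CPM with IGF1, lower in every IGF1 sample (-1.14, SE 0.13, adjusted p = 1.5e-05, and -1.31 without replicate 1). Of initiation and elongation factors 9 of 19 rose and 4 fell (9 and 6 without replicate 1). Eif4e, which binds the mRNA cap, was at 95.2, 98.6 and 97.1 CPM with vehicle and 156, 138 and 142 CPM with IGF1, higher in every IGF1 sample (0.58, SE 0.052, adjusted p = 4.2e-07, and 0.53 without replicate 1). Elongation factor Eef1a2, the muscle form, rose (0.96 and 0.90) while the general form Eef1a1 fell (-0.43 and -0.38). Of 23 targets of ATF4, the factor of the amino acid response, 10 rose and 4 fell, 14 and 6 without replicate 1 and 7 and 4 with IGF1 and vehicle samples alone. The serine synthesis genes Psat1 (0.91 and 0.94 without replicate 1), Psph (0.87 and 0.77) and Phgdh (0.62 and 0.50) rose. Mthfd2, a mitochondrial folate enzyme, was at 41.3, 42.0 and 40.8 CPM with vehicle and 157, 71.9 and 69.2 CPM with IGF1, highest in replicate 1 (1.26, SE 0.33, adjusted p = 0.020, and 0.77 without replicate 1), a call that ended without any 1 vehicle sample (adjusted p = 0.061 to 0.065). The stress genes Trib3 (-0.63 and -0.60) and Ddit3 (-0.35 and -0.33) were lower.

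Protein breakdown genes split between the proteasome and the lysosome. Of 28 proteasome genes 25 were higher and none lower, by small amounts (median 0.22, and 0.15 with 23 higher without replicate 1). Library-size scaling left 15 of them higher and none lower. Psmc5, an ATPase of the regulatory particle, was at 107, 103 and 107 CPM with vehicle and 153, 151 and 144 CPM with IGF1, higher in every IGF1 sample (0.50, SE 0.039, adjusted p = 1.1e-07, and 0.48 without replicate 1). Autophagy and lysosome genes were lower in 17 of 30 and higher in 4 (18 and 4 without replicate 1). The cargo receptor Sqstm1 (p62) was at 819.8, 798 and 786 CPM with vehicle and 355, 394 and 381 CPM with IGF1. It was far lower in every IGF1 sample (-1.09, SE 0.046, adjusted p = 2.9e-10, and -1.05 without replicate 1). Gabarapl1, which marks autophagosomes, was at 109.9, 108 and 113 CPM and 62.6, 51.4 and 49.8 CPM, also without overlap (-1.02, SE 0.069, adjusted p = 5.9e-08, and -1.13 without replicate 1). Cathepsin D, Ctsd (-0.52 and -0.50), the glycogen-degrading Gaa (-0.47 and -0.44) and the lysosomal regulator Tfeb (-0.17 and -0.17) were lower. Of 18 chaperones of the endoplasmic reticulum 6 were lower and 2 higher (8 and 2 without replicate 1, 11 and 2 with library-size scaling), Herpud1 lowest (-0.61 and -0.60). Of 16 cytosolic heat shock genes 5 were higher, among them Hspb7 (0.85 and 0.68), and 2 lower. The lower count was 5 without IGF1 replicate 1 and 1 without vehicle replicate 2 or 3 or IGF1 replicate 2 or 3.

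Early response and ERK feedback genes were lower or not past the threshold at this time. Of 20 AP-1, EGR and NR4A genes none was higher and 10 were lower, and 17 were lower without replicate 1. Maff was at 35.1, 36.4 and 33.3 CPM with vehicle, 8.76, 8.26 and 8.32 CPM with IGF1 and 57.7, 55.6 and 60.3 CPM with phenylephrine. The IGF1 samples were the lowest and the phenylephrine samples the highest (-2.05, SE 0.062, adjusted p = 1.0e-11, and -2.07 without replicate 1). Junb (-0.79 and -0.79 without replicate 1), Fos (-0.73 and -0.75) and Egr1 (-0.67 and -0.80) were lower. Of 14 feedback genes of the ERK pathway 12 were lower and none higher in both fits. Etv5, an ERK-induced transcription factor, was at 50.9, 46.7 and 46.7 CPM with vehicle and 27.9, 26.0 and 27.5 CPM with IGF1, lower in every IGF1 sample (-0.83, SE 0.051, adjusted p = 9.5e-09, and -0.85 without replicate 1). The phosphatases Dusp1 (-0.75 and -0.93), Dusp4 (-0.83 and -1.04) and Dusp6 (-0.57 and -0.81) and the inhibitor Spry1 (-0.57 and -0.61) were lower.

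Targets of BMP signalling were mostly lower too (69.2%), and ligands and receptors of the TGF-beta family in part (47.1%), beside 23.4% of all genes tested. Of 17 ligands and receptors 8 were lower and 2 higher, 11 and 2 without replicate 1. Bmp4 was at 38.6, 32.7 and 34.3 CPM with vehicle and 12.9, 12.7 and 16.2 CPM with IGF1. It was lower in each IGF1 sample (-1.33, SE 0.090, adjusted p = 2.4e-08, and -1.28 without replicate 1). Tgfb1 (-0.67 and -0.71) and Tgfb3 (-0.53 and -0.68) and the receptor Tgfbr2 (-0.66 and -0.59) fell. Of 13 targets of BMP signalling 9 were lower and none higher (10 and none without replicate 1), with Hamp, Nog (-1.08 and -0.98), Atoh8 (-0.89 and -0.91) and the inhibitory Smad7 (-0.77 and -0.75) and Smad6 (-0.53 and -0.54) among them.

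Matrix genes changed in both directions, 6 of 21 collagens and glycoproteins higher and 9 lower (8 and 9 without replicate 1). With all samples 28.6% were higher and 42.9% lower, beside 24.7% and 23.4% of all genes tested. Fibronectin, Fn1, was at 4753, 4702 and 4357 CPM with vehicle and 2609, 3024 and 3114 CPM with IGF1, lower in every IGF1 sample (-0.66, SE 0.062, adjusted p = 6.4e-07, and -0.58 without replicate 1). Periostin, Postn, was at 503, 478 and 417 CPM and 749, 774 and 792 CPM, higher in every one (0.73, SE 0.058, adjusted p = 1.3e-07, and 0.75 without replicate 1). Col3a1 rose (0.55 and 0.62), Col1a1 did not pass the threshold (-0.042, adjusted p = 0.64; 0.019 and 0.84 without replicate 1), and the crosslinking enzyme Lox fell (-0.86 and -0.72). Of cytokine genes and their receptors 10 of 19 were lower and 3 higher (11 and 3 without replicate 1), among the lower Il33 (-0.65 and -0.57) and Icam1 (-0.58 and -0.51). Of 22 interferon response genes 2 were higher and none lower in both fits, 1 higher without vehicle replicate 1 or 2, and 1 higher and 2 lower without IGF1 replicate 2.

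Receptors and regulators gave smaller groups. Of 15 receptors, 6 were lower, among them the guanylyl cyclase receptor Npr2 (-0.88 and -0.87 without replicate 1) and the angiotensin receptor Agtr1a (-0.86 and -0.75), and 2 were higher, Crhr2 among them (6 and 3 without IGF1 replicate 1). Leaving out vehicle replicate 2 gave 3 lower and 1 higher, and 1 was higher without vehicle replicate 1 or IGF1 replicate 3. With all samples 40% of the 15 were lower and 13.3% higher, beside 23.4% and 24.7% of all genes tested. The receptors of phenylephrine, Adra1a (0.079, adjusted p = 0.60) and Adra1b (-0.063, 0.56), did not pass the threshold with all samples. Without replicate 1 the log2 fold change of Adra1a was 0.21 (adjusted p = 0.028), a call, and that of Adra1b -0.0059 (0.95). Of 19 cardiac transcription factors and regulators 9 were higher, Smyd1 most (0.63 and 0.67), and 4 lower (9 and 4 without IGF1 replicate 1, and 2 lower without vehicle replicate 1), Hand1 most (-0.48 and -0.46). Of 26 antioxidant genes 11 were lower and 4 higher (14 and 4 without replicate 1, and 17 lower with library-size scaling). Beside the 24.7% higher and 23.4% lower of all genes tested, the cardiac list had 47.4% and 21.1% and the antioxidant list 15.4% and 42.3%. Hmox1, which degrades heme, was at 121, 105 and 109.5 CPM with vehicle and 63.4, 68.7 and 62.5 CPM with IGF1, lower in every IGF1 sample (-0.79, SE 0.061, adjusted p = 1.1e-07, and -0.77 without replicate 1), catalase fell, and the mitochondrial peroxidase Prdx3 rose (0.46 and 0.43). Of 10 ASB ubiquitin ligase receptors 3 were higher (30%) and 2 lower (20%), near the 24.7% and 23.4% of all genes tested. Without replicate 1, 3 were higher and 3 lower. Asb4 was at 12, 14.3 and 13.7 CPM with vehicle and 37.7, 48.0 and 45.2 CPM with IGF1. It rose in every IGF1 sample (1.71, SE 0.090, adjusted p = 1.7e-09, and 1.80 without replicate 1), while Asb14 fell (-0.98 and -0.84).

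Among markers of other cell types, 55.6% of endothelial and 50% of epicardial markers were lower, beside 23.4% of all genes tested. Smooth muscle and pericyte markers (20% higher, 20% lower) and macrophage markers (none higher, 12.5% lower) stayed under the 24.7% and 23.4% of all genes. Of 9 endothelial markers none was higher and 5 were lower in both fits (3 without vehicle replicate 3 or IGF1 replicate 2). Kdr, the receptor for vascular endothelial growth factor, was at 44.4, 49.1 and 40.5 CPM with vehicle and 11.2, 14.4 and 13.6 CPM with IGF1. Every IGF1 sample was lower (-1.76, SE 0.13, adjusted p = 1.2e-06, and -1.67 without replicate 1), and Tek, another endothelial receptor, fell (-0.85 and -0.72). The log2 fold changes of the 9 endothelial markers ran from -1.76 to 0.50, and from -1.67 to 0.60 without replicate 1. Of 8 epicardial markers 4 were lower in both fits, among them Aldh1a2 (-0.69 and -0.52), and of 10 smooth muscle and pericyte markers 2 were higher and 2 lower (3 and 3 without IGF1 replicate 1, 1 higher without any 1 vehicle or phenylephrine sample or IGF1 replicate 3, and 1 lower without vehicle replicate 1 or 2). The fall of 5 endothelial markers goes beside the falls of BMP targets and matrix genes above, and its part in them was not tested.

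Set beside phenylephrine directly, with 27.1% of all genes tested called in each direction (30.2% higher and 30.4% lower without replicate 1), IGF1 gave higher levels of all 33 mitosis genes, in both fits. It gave lower levels of 19 of 20 cholesterol synthesis genes, 20 of 20 AP-1, EGR and NR4A genes and 13 of 14 ERK feedback genes, and without replicate 1 of 20, 19 and 13. In beta-oxidation 14 of 14 genes were higher with IGF1, in both fits. The respiratory chain list had 48 of 69 higher with IGF1 and 1 lower, and 45 and 5 without replicate 1. In the TCA cycle 15 of 17 were higher and none lower, and 16 and none without replicate 1. Ccnb1 was at 25, 20.8 and 24.9 CPM in the phenylephrine samples, below its level in every IGF1 sample, and Idi1 at 444, 447 and 421 CPM, above it. Txnip, at 773, 793 and 755 CPM with phenylephrine, was below vehicle with either stimulus. Irs2 was at 273, 295 and 282 CPM with phenylephrine, above vehicle, where IGF1 was below.

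IGF1 replicate 1 differed from replicates 2 and 3 in an identifiable set of genes. Of 9262 genes at a mean of 5 CPM or more in the IGF1 samples, 140 were over 1.5-fold above both other samples in replicate 1 and 27 were over 1.5-fold below. For 137 of 140 and 26 of 27 the phenylephrine mean lay on the same side of replicates 2 and 3 as replicate 1. The vehicle mean did for 77 and 19. How many of all 9262 genes had these means on either side was not counted, so the counts have no background share. The bradykinin receptor Bdkrb2 was at 14.7, 0.632 and 1.11 CPM in IGF1 replicates 1 to 3, 1.70, 1.95 and 1.84 CPM with vehicle and 59.5, 66.0 and 63.8 CPM with phenylephrine. Replicate 1 lay between the phenylephrine samples and all others. Scn3b, a sodium channel subunit, was at 65.0, 4.86 and 4.95 CPM with IGF1, 6.41, 7.21 and 7.40 CPM with vehicle and 50.8, 53.2 and 67.8 CPM with phenylephrine, so that replicate 1 lay within the range of the phenylephrine samples. Casq1, however, was higher in replicate 1 than in any phenylephrine sample (73.3, 64.6 and 85.1 CPM), and so was Acta1 (3016, 3323 and 3272 CPM). Among the genes lowest in replicate 1, the cadherin Fat3 was at 3.09, 6.46 and 7.23 CPM with IGF1, 6.65, 5.84 and 7.15 CPM with vehicle and 0.824, 1.82 and 1.68 CPM with phenylephrine, between the phenylephrine and the other samples. Ky was at 9.68, 15.9 and 17.3 CPM with IGF1 and 0.446, 0.863 and 0.452 CPM with phenylephrine. Ccnb1, Cdk1 and the other 31 mitosis genes were above every vehicle sample in all 3 IGF1 samples, which held for 28.8% of all genes tested (27.7% in the other direction). The difference in log2(CPM + 0.1), replicate 1 minus the mean of replicates 2 and 3, had a median of -0.16 over the mitosis genes, -0.15 over the cytokinesis genes and -0.12 over the replication genes, lower in replicate 1 in each list.

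**Figure D5:**
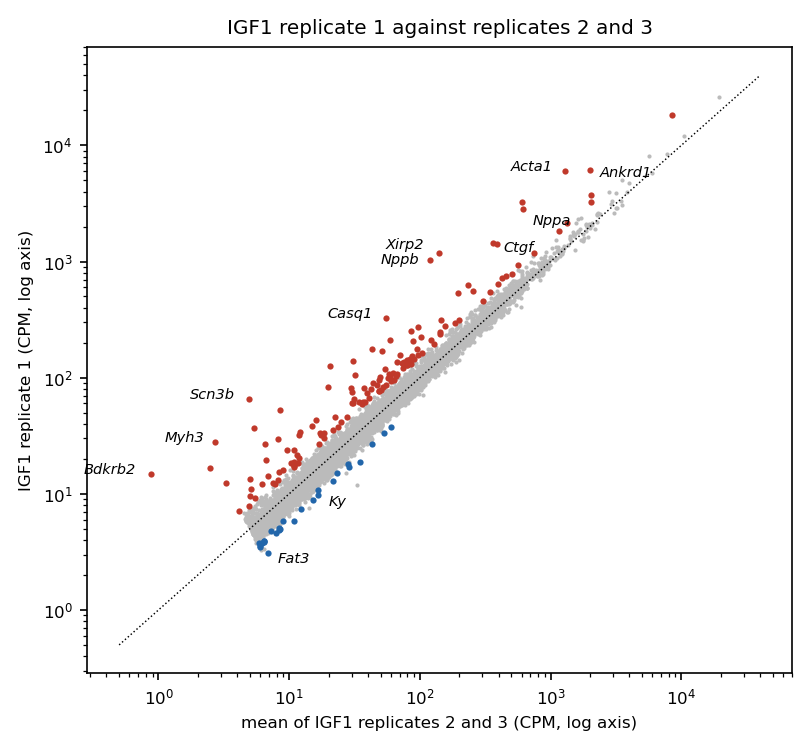
Level of each gene in IGF1 replicate 1 (vertical axis) against the mean of IGF1 replicates 2 and 3 (horizontal axis), both in CPM on log axes, for genes at a mean of 5 CPM or more. The 140 genes in red lie over 1.5-fold above both other samples and the 27 in blue over 1.5-fold below, with Bdkrb2 farthest above and Fat3 farthest below.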

How the data were processed

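The authors deposited raw read counts of 17327 genes in 9 samples, which were not normalized. Libraries were made from total RNA by a NuGEN Ovation kit and run on an Illumina NovaSeq, per the labels' protocols. The tools named are STAR, HTSeq and DESeq and the genome build is rn5, per the submitters' processing notes. Their versions, their roles and the use of strand are not given in the sources used here, so genes that overlap or lie antisense cannot be told apart. Among the 17327 rows, 26 carry gene names turned into dates. Of these, 22 were tested and count in the shares of all genes, and none is named.

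Groups and replicate numbers came from the sample titles. Genes were kept by filterByExpr (minimum count 10, minimum total 15), which left 11873 genes with 99.99% of the counts. Counts were scaled by the trimmed mean of M-values and fitted in edgeR 4.0.16 (R 4.3.3) with a robust quasi-likelihood model over all 9 samples. IGF1 was tested against vehicle and against phenylephrine, with Benjamini-Hochberg adjustment over all genes tested and a threshold of 0.05. Every adjusted p is from this test. The SE was taken as the size of the log2 fold change over the root of F. CPM values use the same scaling. The fit was repeated without IGF1 replicate 1, where 12030 genes were tested. The fitting script was tested on simulated data.

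The 15 largest rises and falls were ranked by the smaller log2 fold change of both fits, among genes called in the same direction in both, at 5 CPM or more in a group, without overlap of the groups. Other genes were named as members of gene lists, and some are not reported here. The comparison, the members and the lists were chosen with earlier results of these data known. Alternatives were DESeq2 1.42.0, other scaling and filters, IGF1 and vehicle samples alone, a replicate block, a threshold of 0.01, and leaving out each sample in turn. Promoter sequences (RefSeq, build GRCr8) were matched to genes by symbol. Intervals and tests cover counting error and the spread between these samples only.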

Additional observations from a re-analysis of the deposited data

How the results depend on the processing

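The counts of genes higher and lower with IGF1 stayed within 1.5 times of the main counts under every alternative run. Leaving out 1 sample at a time gave 2394 to 3292 higher and 2408 to 3194 lower genes, DESeq2 3024 and 2707, and the fit of IGF1 and vehicle samples alone 2723 and 2550. Of 209 genes named in the text and past the threshold, 197 kept their call under every alternative. The calls lost at the threshold of 0.05 were those of Actc1, Casq1, Foxo3, Mthfd2, Myl2, Sypl2 and Trim63. For 5 named genes past the threshold in at least 1 fit the direction turned when IGF1 replicate 1 was left out, from all 9 samples and from IGF1 and vehicle samples alone (the second fit chosen after seeing the data). Their log2 fold changes then were -1.05 and -1.06 for Bdkrb2, -0.21 and -0.21 for Nppa, -0.27 and -0.27 for Nppb, -0.10 and -0.11 for Rcan1, and -0.51 and -0.52 for Scn3b. Over the fits without 1 sample the values ran from -1.05 to 1.97, -0.21 to 1.29, -0.27 to 1.98, -0.10 to 0.77 and -0.51 to 2.27 for these 5 genes in turn. The cause was not tested. Arntl, Ccnd3, Col1a1, Fat3 and Ppargc1a, past the threshold neither with all samples nor without IGF1 replicate 1, also changed sign. With the replicate number as a block, 2871 genes were higher and 2723 lower, and 4 of the named genes lost their call (Actc1, Casq1, Myl2 and Sypl2). Deviations of same-numbered vehicle and IGF1 samples from their group means correlated at -0.0056, -0.071 and -0.16 across genes. Samples with different numbers correlated at -0.089 to 0.14. These values showed no pairing by number. They cannot exclude it, since each mean is of 3 samples and IGF1 replicate 1 stood apart. At 29.1 to 51.6 reads per CPM, changes of genes under 1 CPM rest on few reads, and with 3 samples a group a missed threshold does not show that a gene did not change.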

Other observations

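Of 15 circadian clock genes tested, 3 were higher with IGF1 and 3 lower (4 and 4 without IGF1 replicate 1), close to the 24.7% and 23.4% of all genes tested (27.4% and 26.6%). Npas2, a partner of the clock activator Arntl, was at 2.47, 2.47 and 1.69 CPM in the vehicle samples and 4.28, 3.16 and 4 CPM in the IGF1 samples, so the groups did not overlap (0.79, SE 0.22, adjusted p = 0.0077, and 0.71 without replicate 1). Nfil3, a repressor of clock output, was at 32.6, 33.5 and 32.7 CPM and 51.3, 41.3 and 41.9 CPM, higher in every IGF1 sample (0.44, SE 0.072, adjusted p = 1.5e-04, and 0.34 without replicate 1). Nr1d2 (REV-ERB beta), which represses Arntl, was at 146, 141 and 146 CPM with vehicle and 93.5, 111 and 108 CPM with IGF1, lower in every IGF1 sample (-0.47, SE 0.055, adjusted p = 6.4e-06, and -0.40 without replicate 1). Arntl itself did not pass the threshold (0.10, adjusted p = 0.34; -0.0015 and 0.99 without replicate 1).

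G protein subunits and their regulators were higher in 3 of 18 and lower in 6 (4 and 5 without replicate 1), where 24.7% and 23.4% of all genes tested were. Gnao1, an inhibitory-type alpha subunit, was at 23.8, 24.6 and 24.0 CPM with vehicle and 59.7, 34.8 and 37.5 CPM with IGF1, higher in every IGF1 sample (0.86, SE 0.20, adjusted p = 0.011, and 0.59 without replicate 1). The phosphodiesterase Pde3a, which degrades cyclic AMP in heart muscle, was at 75, 78.3 and 75.9 CPM and 45.2, 50.1 and 53.2 CPM, lower in every one (-0.62, SE 0.056, adjusted p = 4.0e-07, and -0.56 without replicate 1). Adcy5, the main adenylate cyclase of the heart with Adcy6, fell (-0.30 and -0.21 without replicate 1). Adcy6 did not pass the threshold with all samples (0.067, adjusted p = 0.26). Without replicate 1 Adcy6 was called higher (0.12, adjusted p = 0.0014). Of 14 matrix proteases and inhibitors 6 were higher and 1 lower (8 and 1 without IGF1 replicate 1, and 3 higher without vehicle replicate 2, IGF1 replicate 2 or IGF1 replicate 3). Mmp14, which activates other proteases at the cell surface, was at 111, 105 and 95.9 CPM with vehicle and 149.7, 155 and 155 CPM with IGF1, higher in every IGF1 sample (0.56, SE 0.050, adjusted p = 3.9e-07, and 0.58 without replicate 1).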
